A study of Mus musculus with 12 samples.

Results

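The comparison described here asks how the RNA of a melanoma growing in the brain differed, under checkpoint antibodies, between mice that also carried a melanoma outside the brain and mice that did not. It uses 6 of the 12 libraries of the study and every gene in the count table: 3 libraries labelled as having intracranial and extracranial tumors ("both tumors" here) against 3 labelled as having the intracranial tumor only. All 6 came from C57BL/6 mice given anti-PD-1 plus anti-CTLA-4, called therapy. The intracranial tumors grew from 100000 implanted B16 F1 cells, a transplantable pigmented mouse melanoma line, and were taken at day 9. The other 6 libraries are the same tumor groups under IgG control antibody. Age, sex, the place of the extracranial tumor and the antibody schedule are not given in the sources used here. Of 47069 genes in the table, 15925 had enough reads to be tested.

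PD-1 and CTLA-4 are inhibitory receptors of T cells, and antibodies that block them release T cells from that inhibition. Activated T cells and NK cells secrete interferon gamma, which acts on many cell types and induces antigen presentation genes, chemokines and the PD-1 ligand. Naive T cells are primed by dendritic cells in lymph nodes, and activated T cells enter the brain through vessels whose adhesion molecules and chemokines capture them.

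Total counts of the 6 libraries ran from 18486863 to 22294182 reads. Correlations of log2 CPM (counts scaled to a common library size) were 0.9725 to 0.9833 within the intracranial-only group, 0.9588 to 0.9833 within the both-tumor group, and 0.8068 to 0.9195 between groups. Counts of replicates of 1 group differed by more than sampling noise in every pair (chi-square per degree of freedom of at least 24.17). The first principal component of these 6 libraries held 86.44% of the variance and separated the groups. Intracranial-only libraries lay at -105.85, -115.47 and -97.05, and both-tumor libraries at 59.44, 136.46 and 122.47, with replicate 1 nearest to the other group. The IgG libraries were not in these statistics. Among them, replicate 2 of the mice with both tumors stood apart on neuron genes, with a mean log2 CPM of 0.08 against 4.71 and 5.14. Its sample name carries a suffix that the others lack. Replicate 2 of the intracranial-only IgG group stood apart on interferon gamma targets, at 7.33 against 1.84 and 2.27. The groups are described as biological triplicates, and the labels name no batch, litter or cage.

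Genes of normal brain, of T cells, of microglia and of complement were higher in the brain tumors of treated mice with an extracranial tumor, while genes of cell division were lower. Pigment genes of the melanoma were nearly level. In edgeR's quasi-likelihood test, 7231 of the 15925 genes (45.4%) passed an adjusted p (Benjamini-Hochberg) of 0.05, of which 3886 rose (24.4% of all tested) and 3345 fell (21.0%). Large changes were mostly rises: 1551 called genes were at least 8-fold higher and 14 were at least 8-fold lower. The median log2 fold change over all tested genes was 0.03. With nearly 1 gene in 2 called, the background is high, so each count below is to be read against these percentages. Without replicate 2 of the both-tumor therapy group, 4710 genes were called. The 3 libraries of each group did not overlap for 5001 genes that were higher (31.4%) and 4534 that were lower (28.5%), whether called or not.

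**Figure D1:**
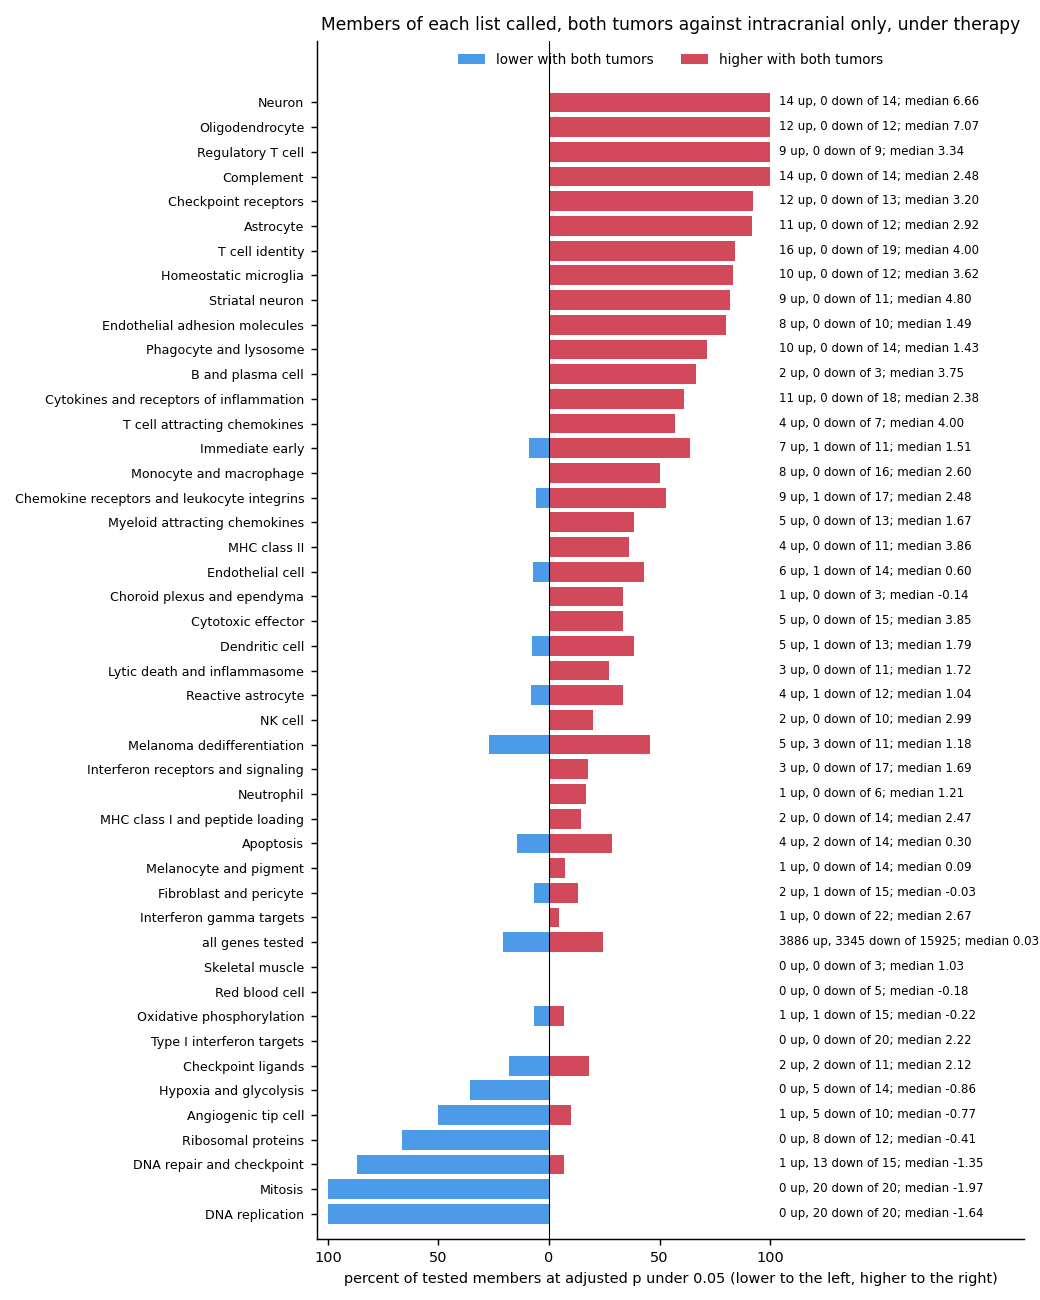
Percent of the tested members of each gene list that passed adjusted p under 0.05, drawn to the right for genes higher with both tumors and to the left for genes lower; counts and the median log2 fold change stand beside each bar. All 14 neuron and all 14 complement genes lie to the right and all 20 mitosis genes to the left, against 24.4% and 21.0% of all genes tested.

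The rises of largest fold were of neuronal genes without a read in any of the 3 intracranial-only therapy libraries. Miat, a long noncoding RNA abundant in neurons (ENSMUSG00000097767, chromosome 5 of GRCm38, 112213228 to 112229395), was at 4.82, 24.9 and 11.5 CPM in the both-tumor libraries. Against a floor of 3 reads over the group it was at least 272-fold higher (adjusted p = 0.0087). Cnih3, an auxiliary protein of AMPA receptors, was at least 163-fold higher, Neto1, an auxiliary protein of kainate receptors, at least 155-fold, and Calb1, a calcium buffer of many neurons, at least 135-fold. The other genes among the 12 largest rises were Otud7a, Shisa9, Jakmip2, Cacna2d3, Csmd1, Nrg3, Lrfn5 and Slitrk4, at least 98.6-fold to 151-fold higher. All 12 had 0 reads in the intracranial-only group, as had 124 tested genes in all. These bounds cover counting error only.

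The largest falls were of genes at low to moderate level. Btnl9, a butyrophilin-like gene expressed by endothelial cells (chromosome 11, 49165585 to 49187159), was at 1.11, 1.70 and 1.11 CPM with the intracranial tumor only and at 0, 0.0995 and 0 CPM with both tumors. Its ratio was 0.0254 (95% interval 0.00303 to 0.0951, counting error only; adjusted p = 0.00525). Pla2g3, a secreted phospholipase, fell by 3.09 ± 0.57 on the log2 scale, and its groups did not overlap. Here and throughout, ± gives an SE derived from edgeR's F statistic in the fit of 12 libraries, with n = 3 per group. Hapln1, a link protein of the hyaluronan matrix, was at 21.5, 115 and 41.9 CPM and at 7.55, 7.21 and 7.67 CPM (-2.99 ± 0.64), so its spread lay in the intracranial-only group. Prok2, Hoxb9, Col9a1, Mgam, Cda and Fam184b fell by 2.87 to 4.22 on the same scale.

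Neuron genes rose in every member. Snap25, a protein of synaptic vesicle fusion, was at 2.16, 0.384 and 0.507 CPM with the intracranial tumor only and at 60.9, 228 and 207 CPM with both tumors. The groups were far apart, and replicate 1 was the lowest of the both-tumor group. The log2 fold change was 7.36 ± 1.45 (adjusted p = 0.00469). All 14 tested neuron genes rose, with a median log2 fold change of 6.66 and a range of 1.84 (Tubb3, a neuronal tubulin) to 7.6 (Slc17a7, the vesicular glutamate transporter of cortical neurons). DESeq2 also called all 14, and limma-voom called 3. Of the striatal neuron list, 9 of 11 rose (median 4.80), among them the adenosine receptor gene Adora2a, at 0.277, 0.493 and 0.829 CPM and at 7.96, 5.02 and 9.51 CPM.

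Glial genes moved in the same direction. All 12 oligodendrocyte genes rose, with a median of 7.07, or 6.47 with genes without reads set at their bound. Mog, a protein of the outer myelin sheath, had reads in 1 of the 3 intracranial-only libraries (0.0553 CPM) and was at 14.2, 7.86 and 14.7 CPM with both tumors, a ratio of 755 (95% interval 135 to 29900). Of the astrocyte list, 11 of 12 rose (median 2.92). Gfap, the intermediate filament of astrocytes, was at 16, 19.9 and 12.6 CPM and at 364, 516 and 726 CPM, a log2 fold change of 5.05 ± 0.78. The gap junction gene Gja1 was the exception, at 0.12 ± 0.19 (adjusted p = 0.643). Of the reactive astrocyte list 4 of 12 rose, Serpina3n, Osmr, Gfap and S1pr3, and Cd44 fell. In bulk RNA, fewer cells of a type and less RNA per cell cannot be told apart. Summed over the list, neuron genes held 108 to 116 CPM with the intracranial tumor only and 612 to 1940 CPM with both tumors, and 363 to 866 CPM in 5 of the 6 IgG libraries, the 6th (replicate 2 with both tumors) holding 111 CPM. The low end therefore lay in the intracranial-only therapy group, and replicate 1 of the both-tumor therapy group lay within the IgG range for this list. On other brain lists that replicate lay above every IgG library. Its summed oligodendrocyte, astrocyte and striatal neuron genes held 1740, 1290 and 177 CPM, against IgG highs of 882, 1110 and 111 CPM.

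**Figure D2:**
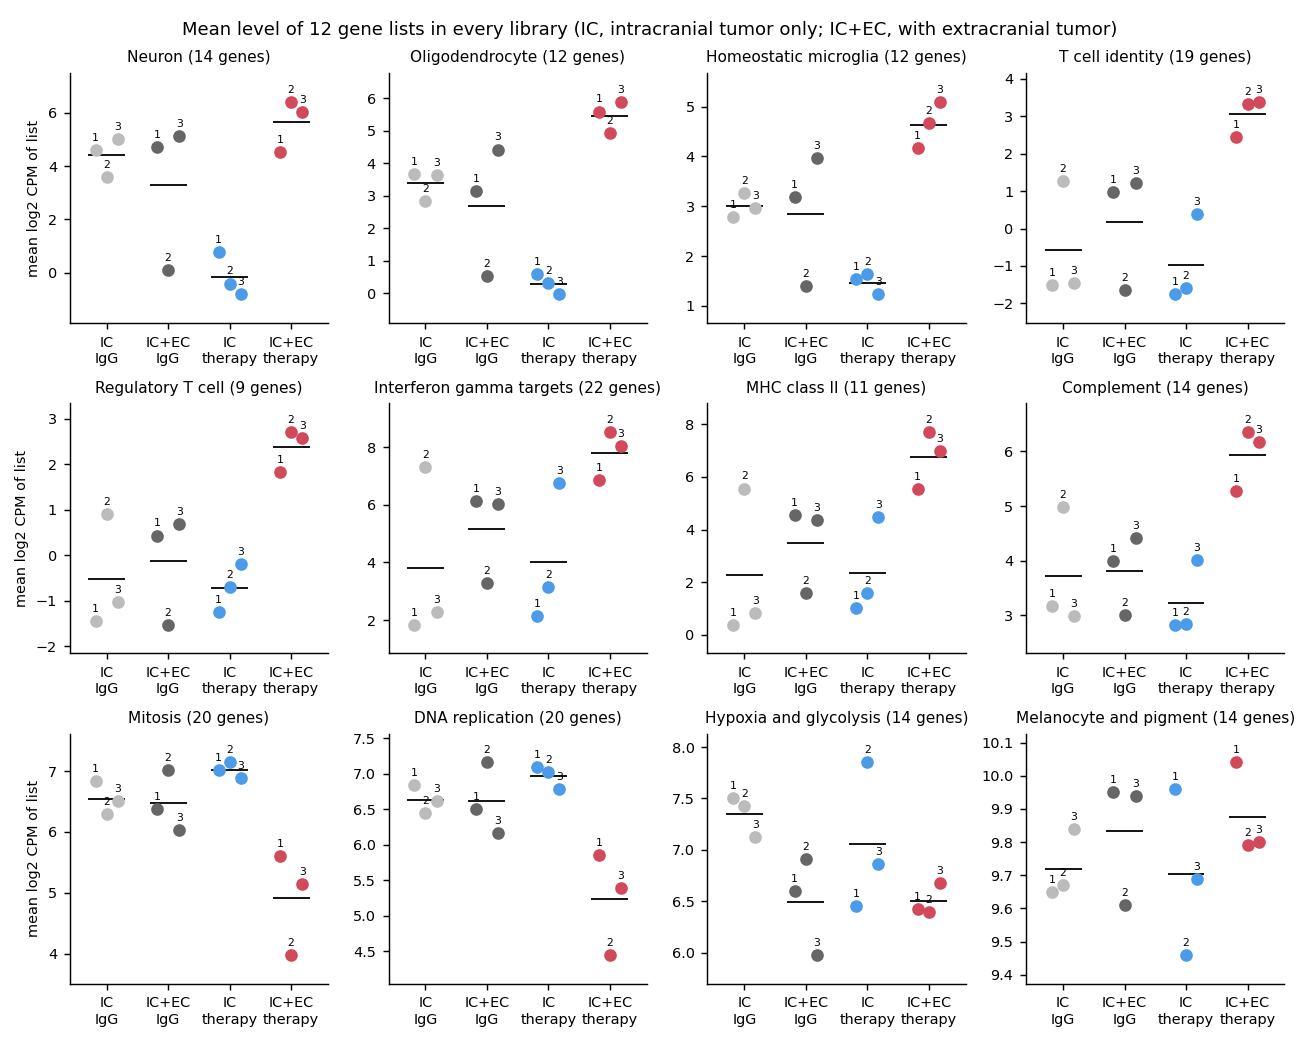
Mean log2 CPM of 12 gene lists in each of the 12 libraries, with a bar at each group mean and the replicate number beside each point; IC is intracranial tumor only and IC+EC is with an extracranial tumor. For 10 of the 12 lists the 3 therapy libraries with both tumors lie on 1 side of the 3 with the intracranial tumor only; hypoxia and pigment genes overlap.

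T cell genes rose together. Cd3d, a chain of the T cell receptor complex, was at 0.221, 0.274 and 0.829 CPM with the intracranial tumor only and at 4.32, 8.95 and 8.59 CPM with both tumors (4.00 ± 1.07, adjusted p = 0.0128). Cd8a, the coreceptor of cytotoxic T cells, was at 0.166, 0.110 and 2.12 CPM and at 7.77, 23.4 and 20.7 CPM (4.40 ± 1.43, adjusted p = 0.0288). Replicate 3 of the intracranial-only group was the highest of its group for both genes and still lay below every both-tumor library. Cd4, the coreceptor of helper T cells, changed by 2.74 ± 0.92 (adjusted p = 0.0333).

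Of the 19 T cell identity genes tested 16 rose, with a median of 4.00, and the groups did not overlap for any of the 19. Cd3e (4.04 ± 1.70, adjusted p = 0.0742) and Cd6 (3.45 ± 1.6, adjusted p = 0.100) were among the 3 that did not pass. The smallest p-values of the list belonged to Lat, an adaptor of T cell receptor signaling, Thy1 and Bcl11b, and the last 2 are also expressed by neurons. Thy1 was at 8.57, 5.59 and 9.86 CPM and at 43.1, 133 and 105 CPM. These 3 were the list's only members whose difference also departed from that under IgG. Leaving out 1 library left 4 to 8 of the 19 genes called in 4 cases: replicates 1 and 2 of the intracranial-only group (6 and 4) and replicates 2 and 3 of the both-tumor group (8 and 7).

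Regulatory T cell genes and checkpoint receptors rose nearly without exception. All 9 tested regulatory T cell genes rose (median 3.34). Foxp3, the transcription factor that defines these cells, was at 0.111, 0.384 and 0.230 CPM and at 2.55, 2.19 and 2.76 CPM, a log2 fold change of 3.34 ± 0.61 (adjusted p = 0.00455). Its 3 both-tumor values were close to each other, unlike those of Cd8a. Ccr8, a chemokine receptor of tumor regulatory T cells, had 1 read in each of 2 intracranial-only libraries, and its ratio was 47.7 (95% interval 12.9 to 399). Leaving out replicate 1 or 2 of the intracranial-only group or 2 or 3 of the both-tumor group left 4 of the 9 called.

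Of 13 genes in the checkpoint receptor list, which also holds a transcription factor and an enzyme, 12 rose (median 3.20). Pdcd1, which encodes PD-1, was at 0.111, 0.164 and 1.20 CPM and at 4.82, 19.1 and 19.0 CPM (4.81 ± 1.44). Ctla4 changed by 4.87 ± 1.64 and Lag3, a receptor for MHC class II, by 4.54 ± 0.99. Havcr2, which encodes TIM-3, Tox, a transcription factor of chronically stimulated T cells, and Entpd1, the ectonucleotidase CD39, also rose. In a fit with the neuron list mean as a covariate, 12 of the 13 fitted values stayed above 0 and that of Tox did not. Which cells held the RNA of these genes was not tested. Btla did not pass (1.70 ± 0.73, adjusted p = 0.0789). Between 6 and 7 of the 13 were called without replicate 1 or 2 of the intracranial-only group or replicate 2 of the both-tumor group.

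Cytotoxic genes had large fold changes, and most did not pass. Over all genes tested, 24.4% rose. Gzmb, the granzyme B gene, was at 0.221, 0.164 and 10.3 CPM with the intracranial tumor only and at 10.1, 69.6 and 47.4 CPM with both tumors, so that replicate 3 of the first group reached replicate 1 of the second (3.55 ± 2.03, adjusted p = 0.174). Prf1, which encodes the pore-forming perforin, was at 3.62 ± 2.05 (adjusted p = 0.168) and Ifng, the interferon gamma gene, at 3.32 ± 1.71 (adjusted p = 0.133). Of the 15 genes 5 rose: Fasl, Ccl5, Tbx21, Ctsw and Tnf, which encode the Fas ligand, a T cell chemokine, the Th1 transcription factor T-bet, a cathepsin of killer cells and tumor necrosis factor. The median of the list was 3.85. The count was 11 of 15 without replicate 2 of the intracranial-only IgG group, 11 in a fit of the compared groups alone and 10 with limma-voom. It was 1 or 2 without replicate 1 or 2 of the intracranial-only therapy group or replicate 2 or 3 of the both-tumor therapy group, and 3 without replicate 1 of the both-tumor IgG group.

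Among NK cell genes, Klrd1 and Txk rose and 8 of 10 did not pass (median 2.99). The 2 calls became 7 in the compared groups alone and 4 with DESeq2 or limma-voom. The count was 6 without replicate 2 of the intracranial-only IgG group and 4 without replicate 3 of the intracranial-only therapy group. It was 0 without replicate 1 or 2 of the intracranial-only therapy group, 2 or 3 of the both-tumor therapy group or 3 of the both-tumor IgG group, and 1 without replicate 1 of either both-tumor group. In the B and plasma cell list, Fcrla and Ighm, the heavy chain of IgM, rose. Cd79a, a chain of the B cell receptor, did not pass (0.84 ± 0.57). Ighm was at 0.387, 0.931 and 1.98 CPM and at 10.1, 18.6 and 16.3 CPM. The other 7 genes of that list, the B cell marker Ms4a1 among them, were too low to test.

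All 22 interferon gamma targets, all 20 type I targets and 16 of 17 interferon receptor and signaling genes had fitted values above 0, with 1, 0 and 3 calls. Irf1, an early interferon gamma target, was at 16.4, 28.5 and 225 CPM with the intracranial tumor only and at 262, 719 and 476 CPM with both tumors (2.43 ± 1.25, adjusted p = 0.132). Replicate 3 of the intracranial-only group was several times its 2 companions and still below the other group. For Gbp2, an interferon-induced GTPase, this replicate reached 453 CPM, against 5.25 and 21.7 CPM in its companions, and overlapped the both-tumor group at 371, 1660 and 1040 CPM. An IgG library also reached the both-tumor therapy level. Replicate 2 of the intracranial-only IgG group had means (log2 CPM) of 7.33, 6.74 and 6.53 for the 3 lists. Replicate 1 of the both-tumor therapy group had 6.85, 5.56 and 6.21. The other IgG libraries lay at 1.84 to 6.12 for interferon gamma targets.

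Of the 22 interferon gamma targets, 1, Serping1, the C1 inhibitor of complement, rose (2.78 ± 0.84, adjusted p = 0.0211), although all 22 had a fitted change above 0 (median 2.67) and 14 did not overlap. Of 20 type I interferon targets 0 were called by edgeR in the fit of 12 libraries, with 1 at an unadjusted p under 0.05 (median 2.22); 3 were called by edgeR in the compared groups alone, 1 by DESeq2 and 0 by limma-voom. Over 17 interferon receptors and signaling genes the median was 1.69, and 3 rose: the receptor chains Ifngr1 (0.81 ± 0.17) and Ifnar2 (0.79 ± 0.20), and Socs3, a feedback inhibitor (1.69 ± 0.43). The 3 receptor and signaling calls became 7 in the compared groups alone, 7 with DESeq2 and 9 with limma-voom, and the 1 interferon gamma target became 3, 3 and 2. Without replicate 3 of the intracranial-only therapy group the counts were 11 of 22, 7 of 20 and 12 of 17. Without replicate 2 of the intracranial-only IgG group they were 6, 4 and 9. No interferon gamma target was called without replicate 1 or 2 of the intracranial-only or 2 or 3 of the both-tumor therapy group, and 2 were without replicate 1 of the latter group, which also gave 1 type I target.

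Promoters of the interferon targets were searched for letters that the comparison did not use. Of 22 interferon gamma targets, 13 had a promoter in the RefSeq table (GRCm38.p6), read here as the 250 bases before the first listed start. The letters GAAANNGAA, the core of the element that interferon-activated factors recognize, searched on both strands, stood in 8 of these 13 (61.5%), in 8 of 15 type I targets (53.3%) and in 3 of 12 MHC class I genes (25.0%), against 7.16% of 27025 promoters. It stood in 0 of 9 neuron and 0 of 9 pigment gene promoters. The lists were assembled by gene function, so these shares do not bear on the comparison, and they were not tested. The 8 interferon gamma targets holding the letters were Gbp2, Gbp3, Gbp5, Gbp7, Irgm1, Irgm2, Igtp and Tgtp1, several of them members of the same gene family. A match is a description of the letters only. The promoters of Gbp5, chr3:142496684-142496933, plus strand, and Irgm2, chr11:58214727-58214976, plus strand, are shown because these GTPases had the smallest p of the interferon gamma targets that hold the letters; capitals mark the match on either strand.
Gbp5: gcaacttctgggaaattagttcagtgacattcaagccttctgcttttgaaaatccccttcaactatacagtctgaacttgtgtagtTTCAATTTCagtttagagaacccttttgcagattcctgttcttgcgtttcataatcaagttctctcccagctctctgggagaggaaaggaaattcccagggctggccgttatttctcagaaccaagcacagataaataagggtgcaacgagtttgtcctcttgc
Irgm2: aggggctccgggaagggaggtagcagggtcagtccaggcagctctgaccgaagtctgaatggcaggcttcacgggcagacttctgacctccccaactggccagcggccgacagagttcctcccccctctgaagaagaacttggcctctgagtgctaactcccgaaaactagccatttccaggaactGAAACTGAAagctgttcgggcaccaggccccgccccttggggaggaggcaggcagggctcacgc
Gbp5 was at 0.442, 1.75 and 26.2 CPM with the intracranial tumor only and at 39.9, 183 and 153 CPM with both tumors (3.71 ± 1.72, adjusted p = 0.100). Irgm2 was at 9.68, 15.4 and 281 CPM and at 415, 1050 and 862 CPM (2.93 ± 1.67, adjusted p = 0.173). Neither passed, and in each the groups did not overlap.

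Antigen presentation genes had medians near those of the interferon gamma targets or above, and most were not called. Of all genes tested, 24.4% were called higher. H2-D1, a classical MHC class I heavy chain, was at 188, 155 and 889 CPM and at 1620, 4020 and 2960 CPM (2.80 ± 1.08, adjusted p = 0.055). Of 14 MHC class I and peptide loading genes 2 rose, H2-Q6 and H2-Q7, near-identical genes that can share reads (median 2.47). H2-Aa, an MHC class II chain, was at 5.53, 7.56 and 117 CPM and at 212, 1040 and 637 CPM (3.86 ± 1.83, adjusted p = 0.107). Of 11 MHC class II genes 4 rose (median 3.86): H2-DMb2, H2-Oa and H2-Ob, whose products regulate peptide loading on class II, and Ctss, the cathepsin that trims the invariant chain. Ctss was at 32.8, 16.4 and 75.8 CPM and at 445, 833 and 569 CPM. Class I calls numbered 7 in the compared groups alone, 6 with DESeq2 and 9 with limma-voom, and class II calls 8, 8 and 9. Without replicate 3 of the intracranial-only therapy group, 11 of 14 class I and 10 of 11 class II genes were called. Without replicate 1 or 2 of the intracranial-only or replicate 2 or 3 of the both-tumor therapy group, 0 class I and 2 class II genes were called, and without replicate 1 of the both-tumor IgG group 1 class I gene was. Without replicate 2 of the intracranial-only IgG group both counts were 9. That library had means (log2 CPM) of 8.19 for class I and 5.56 for class II. Both were above those of replicate 1 of the both-tumor therapy group (7.96 and 5.54).

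Of 11 checkpoint ligand genes 2 rose and 2 fell, smaller shares than over all genes tested. Cd274, which encodes PD-L1, was at 8.52, 9.64 and 70.4 CPM and at 89.1, 385 and 256 CPM, short of the threshold (3.04 ± 1.15, adjusted p = 0.0513). Pdcd1lg2, which encodes PD-L2, rose by 4.84 ± 1.33 and Cd86, a ligand of CD28 and CTLA-4, by 3.6 ± 1.20. Pvr, a ligand of the receptor TIGIT, and Cd276, which encodes B7-H3, fell by 0.86 ± 0.31 and 0.77 ± 0.16, and the median of the 11 ligands was 2.12. The 2 rises became 5 in the compared groups alone, 5 with DESeq2 and 6 with limma-voom. They became 6 without replicate 2 of the intracranial-only IgG group or replicate 3 of the intracranial-only therapy group, 4 without replicate 1 of the intracranial-only IgG or of the both-tumor therapy group, and 3 without replicate 3 of the intracranial-only IgG group. They became 0 without replicate 1 of the intracranial-only therapy group and 1 without replicate 2 of that group or replicate 2 or 3 of the both-tumor therapy group. One of the 2 falls was lost without any of 8 libraries: the 3 intracranial-only IgG libraries, replicates 2 and 3 of the intracranial-only therapy group, replicate 1 of the both-tumor IgG group, and replicates 2 and 3 of the both-tumor therapy group.

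**Figure D3:**
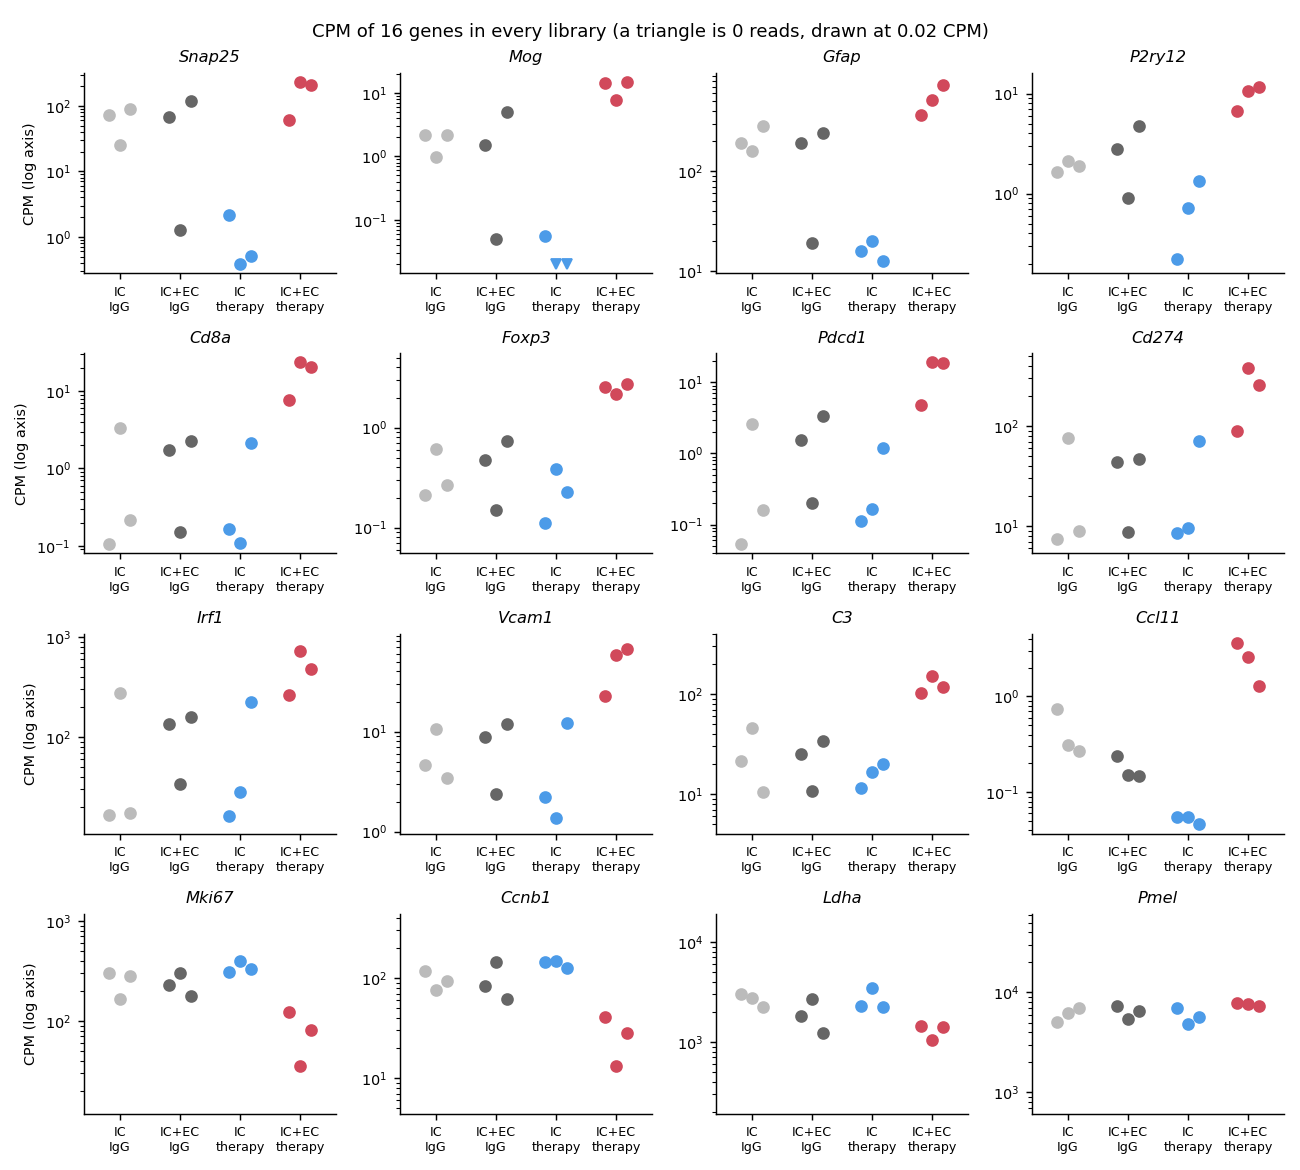
CPM of 16 genes in the 12 libraries on log axes (IC, intracranial tumor only; IC+EC, with an extracranial tumor; 1 point per library, triangles for 0 reads). Cd8a, Pdcd1 and Irf1 show 1 intracranial-only therapy library above its companions but below every both-tumor therapy library. Foxp3, C3 and Ccl11 also show no overlap between the therapy groups, and Pmel lies between 4800 and 7850 CPM in these groups.

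Chemokine genes that attract T cells were higher in part. Of 7 genes 4 rose (median 4.00): Cxcl16, the ligand of CXCR6, Ccl5, Ccl19, a ligand of CCR7, and Cx3cl1, a membrane-bound chemokine that neurons make. Ccl5 was at 2.38, 1.64 and 4.97 CPM and at 15, 92.7 and 49.9 CPM (4.12 ± 1.09). The interferon-induced ligands of CXCR3 did not pass, with Cxcl9 at 3.12 ± 1.84 and Cxcl10 at 2.71 ± 1.39 (adjusted p = 0.187 and 0.132). Their receptor gene Cxcr3 was at 8.90, 6.52 and 10.9 CPM and at 7.09, 5.72 and 5.19 CPM (-0.55 ± 0.29).

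Among 13 myeloid chemokine genes 5 rose (median 1.67): Ccl3, Ccl4, Ccl11, Ccl24 and Csf1. Ccl11, the eosinophil chemokine eotaxin (chromosome 11, 82057823 to 82062955), had 1 read in each intracranial-only library and was at 3.64, 2.59 and 1.29 CPM with both tumors, a ratio of 50.9 (95% interval 17.1 to 249). Ccl24, a second eotaxin, was at 0.0553, 0.329 and 0.0461 CPM and at 23.5, 3.63 and 0.643 CPM, with most of it in replicate 1. The count of 5 fell to 2 or 3 without 1 of 6 libraries: replicates 1 and 2 of the intracranial-only therapy group, 2 and 3 of the both-tumor therapy group, or 1 and 3 of the both-tumor IgG group. It was also 3 after scaling to pigment genes.

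Homing receptors and vessel adhesion genes rose in most members. Of 17 chemokine receptors and leukocyte integrins 9 rose and 1 fell (median 2.48). Cxcr6, which marks T cells resident in tissue, was at 0.221, 0.0548 and 0.921 CPM and at 4.27, 8.65 and 10.9 CPM (4.26 ± 1.31), and Itgb2, the shared chain of leukocyte integrins, rose by 2.70 ± 0.68. Itga4, a chain of the VCAM-1 receptor VLA-4, fell from 67.0, 86.1 and 61.3 CPM to 46.1, 29.3 and 49.4 CPM (-0.78 ± 0.23), and was not called without replicate 2 of either therapy group. Of 10 adhesion genes of endothelial cells 8 rose (median 1.49). Vcam1, the vascular ligand of VLA-4, was at 2.21, 1.37 and 12.3 CPM and at 22.9, 58.8 and 66.8 CPM (3.22 ± 0.89, adjusted p = 0.0145). Icam1 changed by 2.71 ± 1.00, and Ackr1, the chemokine carrier of venules, by 5.09 ± 1.11. Between 3 and 5 of the 10 were called without any 1 of the 3 intracranial-only therapy libraries or replicate 2 or 3 of the both-tumor therapy group, and 5 after scaling to pigment genes.

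Microglia and macrophage genes rose with the brain genes. Of 12 homeostatic microglia genes 10 rose (median 3.62). P2ry12, the purinergic receptor of resting microglia, was at 0.221, 0.712 and 1.34 CPM and at 6.77, 10.7 and 11.6 CPM (3.66 ± 0.67, adjusted p = 0.00455), and Sall1, their lineage factor, changed by 5.57 ± 0.99. Slc2a5 (-0.05 ± 0.11) and Sparc did not pass, and 9 or 10 were called without any 1 library. Of 16 monocyte and macrophage genes 8 rose (median 2.60). Nos2, the inducible nitric oxide synthase, was at 0.553, 0.712 and 1.89 CPM and at 7.68, 54.3 and 22.2 CPM (4.72 ± 0.97), and Arg1, the arginase that shares its substrate, at 3.10, 16.9 and 10.1 CPM and at 113, 117 and 53.9 CPM (3.23 ± 1.08). The inflammatory monocyte marker Ly6c2 did not pass (2.99 ± 1.67, adjusted p = 0.165), nor did the mannose receptor Mrc1 (-0.01 ± 0.66). Without replicate 1 or 2 of the intracranial-only therapy group 4 or 5 were called.

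Phagocyte genes that microglia and macrophages induce rose in 10 of 14 cases (median 1.43), including Trem2, a lipid receptor (3.06 ± 0.62), Cst7 and the lysosomal proteases Ctsb (1.43 ± 0.24) and Ctsd (0.96 ± 0.17). Of 13 dendritic cell genes 5 rose, Flt3, Ccr7, Siglech, Itgax and Apol7c, and Fscn1 fell (median 1.79). Siglech is also in the homeostatic microglia list and is counted in both. Ccr7, the receptor that leads dendritic and T cells to lymph nodes, was at 0.442, 0.329 and 0.599 CPM and at 4.00, 5.32 and 8.31 CPM. Of 6 neutrophil genes tested Csf3r rose, and the list's median was 1.21; 2 rose without replicate 3 of the both-tumor therapy group. Defining neutrophil genes such as Ly6g and Camp were too low to test.

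Every tested complement gene rose. C3, the central component (chromosome 17, 57203970 to 57228136), was at 11.6, 16.8 and 19.8 CPM with the intracranial tumor only and at 103, 153 and 117 CPM with both tumors (2.95 ± 0.53, adjusted p = 0.00455). Its values were even within each group. C1qa, a chain of the initiator C1q made by microglia and macrophages, was at 15.7, 15.7 and 41.8 CPM and at 237, 539 and 454 CPM (4.07 ± 0.86). C1qc, another chain of C1q, rose by 3.95 ± 0.79 and C2 by 1.58 ± 0.47, the smallest change of the 14 (median 2.48). Between 5 and 7 of the 14 were called without replicate 1 or 2 of the intracranial-only therapy group or 2 or 3 of the both-tumor therapy group.

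Of 18 inflammatory cytokine and receptor genes 11 rose (median 2.38), among them Il1a (5.19 ± 1.19), Il1b (3.32 ± 1.15), the oncostatin M gene Osm (2.26 ± 0.79) and its receptor Osmr (1.21 ± 0.19). Lif was at 0.04 ± 0.66 (adjusted p = 0.966). The count was 6 without replicate 1 or 2 of the intracranial-only therapy group or replicate 2 of the both-tumor therapy group. Of 11 genes of lytic death and the inflammasome 3 rose, Nlrp3, Casp1 and the DNA sensor Aim2 (median 1.72). The count was 6 in the compared groups alone, with DESeq2 and with limma-voom, 8 without replicate 2 of the intracranial-only IgG group, and 1 without replicate 1 or 2 of the intracranial-only or 2 or 3 of the both-tumor therapy group. In the apoptosis list Bcl2l1, Bcl2l11, Pmaip1 and Fas rose and 2 genes fell, Tnfrsf10b, a death receptor gene, among them at -0.73 ± 0.25 (median 0.30). DESeq2 called 7 rises, and 2 were called after scaling to pigment genes. None of the 4 rises was called without replicate 1 of the intracranial-only therapy group, and 2 were without replicate 2 or 3 of the both-tumor therapy group. One of the 2 falls was called without any 1 of these 3 libraries or replicate 2 or 3 of the intracranial-only therapy group.

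Genes of cell division fell as a block. Mki67, the proliferation antigen Ki-67, was at 307, 397 and 330 CPM with the intracranial tumor only and at 124, 35.2 and 81.4 CPM with both tumors (-2.10 ± 0.40, adjusted p = 0.00458). Ccnb1, the cyclin of mitotic entry, was at 146, 147 and 127 CPM and at 41.0, 13.2 and 28.1 CPM (-2.35 ± 0.41). The 3 intracranial-only values were nearly equal, and replicate 2 was lowest of the both-tumor group in both genes. All 20 mitosis genes fell, over a narrow range of -1.71 to -2.35 (median -1.97). All 20 stayed called whichever 1 of the 12 libraries was left out.

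All 20 DNA replication genes fell as well (median -1.64), including Mcm4 of the replicative helicase (-1.55 ± 0.28), Tk1, thymidine kinase (-1.99 ± 0.44), and the S phase transcription factor gene E2f1 (-1.32 ± 0.24). Of 15 DNA repair and checkpoint genes 13 fell (median -1.35), with the checkpoint kinase gene Chek1 at 40.5, 35.8 and 32.1 CPM and at 14.1, 4.92 and 8.08 CPM (-2.00 ± 0.35) and Exo1, an exonuclease, at -2.05 ± 0.43. The mean log2 CPM of the mitosis list was 7.02, 7.14 and 6.89 with the intracranial tumor only and 5.61, 3.98 and 5.14 with both tumors, and 6.03 to 7.02 in the 6 IgG libraries. The 3 both-tumor therapy libraries were thus the lowest of the 12.

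Promoters of the division genes were searched for letters that the comparison did not use. CCAAT, the box bound by NF-Y, and TTTGAA, the core of the cell cycle homology region bound by the DREAM and MuvB complexes, were searched on both strands of the same 250 bases. CCAAT stood in 15 of 17 mitosis promoters (88.2%), against 34.46% of 27025 promoters, in 4 of 9 neuron promoters (44.4%) and in 5 of 9 pigment gene promoters (55.6%). TTTGAA stood in 7 of 17 (41.2%), against 16.27% of all, in 0 of 9 neuron promoters and in 1 of 9 pigment gene promoters (11.1%). GCGGGAA, a form of the E2F site, stood in 4 of 16 DNA replication promoters (25.0%), against 3.84% of all, in 1 of 9 neuron promoters (11.1%) and in 0 of 9 pigment gene promoters. Most mitosis promoters thus lacked TTTGAA and most replication promoters lacked GCGGGAA, and no test of these shares was run. Here too the lists were assembled by gene function, so the shares do not bear on the comparison. The promoters of Top2a, chr11:99024190-99024439, minus strand, and Kif11, chr19:37376132-37376381, plus strand, had the smallest p of mitosis genes with both matches, and Pola1, chrX:93632156-93632405, minus strand, of replication genes with the E2F letters. Capitals mark CCAAT and TTTGAA on either strand in the first 2 and GCGGGAA in the last.
Top2a: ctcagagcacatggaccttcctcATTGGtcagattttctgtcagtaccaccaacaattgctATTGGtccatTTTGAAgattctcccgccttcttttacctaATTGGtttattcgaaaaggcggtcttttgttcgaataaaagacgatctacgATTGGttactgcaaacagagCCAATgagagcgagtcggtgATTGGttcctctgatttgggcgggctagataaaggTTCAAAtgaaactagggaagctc
Kif11: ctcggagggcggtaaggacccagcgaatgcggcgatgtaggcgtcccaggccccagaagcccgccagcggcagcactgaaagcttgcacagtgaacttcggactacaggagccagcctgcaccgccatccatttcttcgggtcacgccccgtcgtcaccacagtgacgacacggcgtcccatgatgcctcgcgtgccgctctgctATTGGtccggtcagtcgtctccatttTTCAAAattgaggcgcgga
Pola1: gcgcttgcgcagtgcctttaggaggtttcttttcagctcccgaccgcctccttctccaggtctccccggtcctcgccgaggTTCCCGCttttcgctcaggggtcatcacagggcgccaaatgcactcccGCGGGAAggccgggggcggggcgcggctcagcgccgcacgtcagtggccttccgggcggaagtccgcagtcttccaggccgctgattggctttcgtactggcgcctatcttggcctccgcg
Top2a, a topoisomerase of dividing cells, was at 593, 649 and 628 CPM and at 240, 90.3 and 195 CPM (-1.83 ± 0.31). Kif11, a spindle motor, was at 134, 150 and 122 CPM and at 48.6, 16.4 and 34.6 CPM (-2.03 ± 0.36). Pola1, the catalytic subunit of DNA polymerase alpha, was at 68.6, 77.4 and 67.0 CPM and at 32.7, 15.7 and 27.5 CPM (-1.49 ± 0.25).

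Melanoma pigment genes were close to level. Pmel, the fibril protein of melanosomes, was at 6960, 4800 and 5700 CPM with the intracranial tumor only and at 7850, 7660 and 7300 CPM with both tumors (0.39 ± 0.18, adjusted p = 0.0954). Dct, a melanin enzyme, was at 10600, 7860 and 8130 CPM and at 10700, 9960 and 7630 CPM (0.09 ± 0.17), so its groups overlapped. Of 14 pigment genes 1 rose, the melanocyte channel gene Trpm1 (0.77 ± 0.25, adjusted p = 0.0291), and the list's median was 0.09. No pigment gene rose without replicate 2 or 3 of the intracranial-only therapy group or any 1 of the both-tumor therapy libraries. The summed list held 24500 to 33000 CPM and 28400 to 33400 CPM in the 2 groups, so tumor RNA was abundant in every library. When libraries were scaled to this list in place of all genes, 2975 genes were higher and 3258 lower, and the median of all genes moved to -0.11.

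In the list of melanoma dedifferentiation genes 5 of 11 rose and 3 fell (median 1.18). Of the rises, Sox2 and Sox9 are also astrocyte and neural stem cell genes, and Sox2 was at 0.498, 0.110 and 0 CPM and at 8.46, 12 and 19.2 CPM. Wnt5a and Jun rose as well, and Nes, Tead1 and Cd44 fell. Without replicate 2 of the both-tumor therapy group 1 of the 3 falls was called.

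Genes of hypoxia and glycolysis were lower in 5 of 14 cases (median -0.86): Ldha, Pgk1 and Eno1, enzymes of glycolysis, Car9, a carbonic anhydrase induced by low oxygen, and the angiogenic factor gene Vegfa. Ldha was at 2300, 3500 and 2250 CPM and at 1430, 1050 and 1400 CPM (-1.06 ± 0.28), and Car9 at 29.1, 69.7 and 58.5 CPM and at 12.1, 6.47 and 15.1 CPM (-2.23 ± 0.60). Vegfa was at 38.6, 197 and 80.5 CPM and at 43.9, 41.2 and 43.9 CPM (-1.29 ± 0.47), so the groups overlapped and replicate 2 of the intracranial-only group held the high value. Under IgG the median of this list was -0.87 and all 14 fitted values were below 0, with 0 genes called. No member passed in the interaction. Without replicate 2 of the intracranial-only therapy group 4 genes fell and 4 rose, without replicate 1 of that group 9 fell, and without replicate 2 of the both-tumor therapy group 2 fell. Without replicate 1 of that group 4 fell and 1 rose.

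Vessel genes moved in both directions. Of 10 tip cell genes, which mark sprouting vessels, 5 fell (median -0.77): Esm1 (-3.68 ± 1.04), Pgf (-2.24 ± 0.55), Plvap (-1.41 ± 0.36), Nid2 (-1.30 ± 0.29) and Kcne3 (-3.62 ± 0.96). Esm1 was at 3.87, 2.85 and 7.14 CPM and at 0.455, 0.0995 and 0.505 CPM. Cxcr4, which leukocytes also express, rose. Under IgG the median of the list was -0.59, with 1 of 10 fitted values above 0. Without replicate 2 of the both-tumor therapy group 3 tip cell genes fell. Of 14 endothelial genes 6 rose and 1, Emcn, fell (median 0.60), while 7 did not pass. Emcn was not called without replicate 2 or 3 of either therapy group. Cldn5 and Ocln, tight junction genes of the blood-brain barrier, rose by 3.32 ± 0.69 and 3.20 ± 0.81, with Cldn5 at 2.49, 6.63 and 2.12 CPM and at 33.3, 33.1 and 45.7 CPM. Of 15 fibroblast and pericyte genes Pdgfra, which oligodendrocyte precursors also express, and Rgs5 rose and Col4a1 fell (median -0.03). Falls numbered 3 in the compared groups alone, 2 with DESeq2 or limma-voom, 0 without replicate 2 of either therapy group and 2 without replicate 1 of the intracranial-only IgG group or replicate 2 or 3 of the both-tumor IgG group.

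Smaller groups were as follows. Of 11 immediate early genes 7 rose and Nr4a1 fell (median 1.51), with the neuronal activity gene Arc at 0.387, 0 and 0.138 CPM and at 13.1, 45.7 and 43.2 CPM (7.56 ± 1.37). Nr4a1 was not called without replicate 1 of the intracranial-only or 2 or 3 of the both-tumor therapy group. Ribosomal protein genes fell in 8 of 12 cases by small amounts (median -0.41), and 4 were called with RLE size factors. None was called without replicate 1 of the intracranial-only or 3 of the both-tumor therapy group, 1 without replicate 2 of the latter, 2 without replicate 2 of the former, and 5 without replicate 3 of the intracranial-only therapy or 2 of the intracranial-only IgG group. In oxidative phosphorylation Ndufa1 rose and Atp5b fell, of 15 genes (median -0.22). Falls numbered 4 after scaling to pigment genes, 2 with DESeq2 or limma-voom, 7 without replicate 1 of the both-tumor therapy group, 4 without replicate 2 of the both-tumor IgG group, and 0 without replicate 2 or 3 of the both-tumor or any of the 3 intracranial-only therapy libraries; rises numbered 2 without replicate 1 of the last group. Red blood cell genes were not called by edgeR (0 of 5, median -0.18, 0 at an unadjusted p under 0.05 and 0 by DESeq2 and limma-voom), and their summed level spread from 1.66 to 23.7 CPM in 1 group and 4.27 to 17.5 CPM in the other. Under IgG their median was -2.88, with all 5 fitted values below 0. Of 3 choroid plexus and ependyma genes tested Foxj1 rose, and of 3 skeletal muscle genes none did in edgeR (1 at an unadjusted p under 0.05, 1 by DESeq2, 1 without replicate 1 of the both-tumor therapy group).

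The immune and division lists were set beside the neuron list, whose level moved with the groups. In the both-tumor therapy group replicate 1 had the lowest neuron mean (4.55, against 6.41 and 6.03), the highest mitosis mean (5.61) and the lowest T cell mean (2.45, against 3.32 and 3.38). Its neuron mean lay within the 3.58 to 5.14 of 5 IgG libraries. Its mitosis mean was below their lowest (6.03) and its T cell mean above their highest (1.28). The other brain lists did not match the IgG level. Its oligodendrocyte, striatal neuron and astrocyte means were 5.59, 3.38 and 6.02, above every IgG library (highest 4.42, 2.3 and 5.81). In the intracranial-only therapy group replicate 3 had the highest interferon gamma target mean (6.75, against 2.15 and 3.13) and the lowest neuron mean (-0.82).

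With the mean log2 CPM of the neuron list as a covariate, no gene passed in edgeR (988 at an unadjusted p under 0.05, smallest adjusted p = 0.713). Standard errors grew by a median factor of 1.76, and 83.3% of the called genes kept their direction. List medians in that fit were 2.02 for T cell identity, 2.06 for complement, 1.12 for microglia, -0.89 for mitosis and -0.70 for DNA replication, and 2.50 for oligodendrocytes. Since neuron genes did not overlap between the groups, the share of brain tissue in a sample and the presence of the extracranial tumor cannot be told apart in these 6 libraries.

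**Figure D4:**
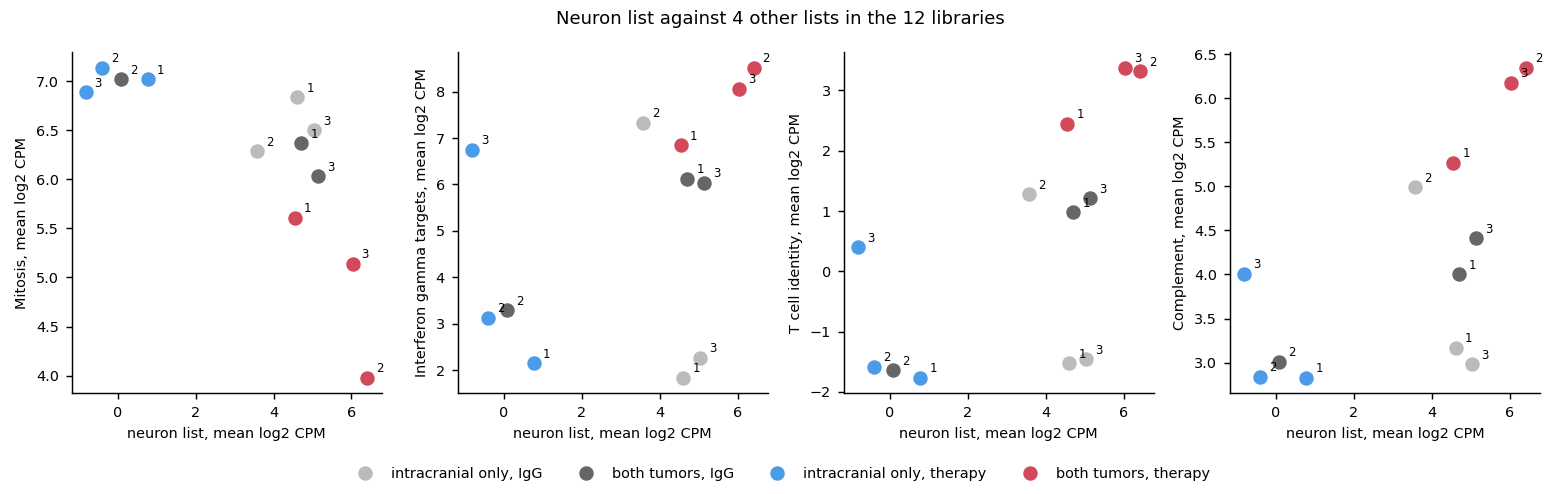
Mean log2 CPM of 4 lists against that of the neuron list in the 12 libraries, colored by group with the replicate number beside each point. Replicate 1 with both tumors under therapy has a neuron mean of 4.55, among the IgG libraries, and a mitosis mean of 5.61, below them. Its oligodendrocyte, striatal neuron and astrocyte means, not drawn here, lie above every IgG library. Replicate 3 with the intracranial tumor only under therapy has an interferon gamma target mean of 6.75 at a neuron mean of -0.82.

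Under IgG the same tumor comparison called 0 of 15925 genes (0%) in edgeR, and 0 in DESeq2 and limma-voom, with 188 at an unadjusted p under 0.05 in edgeR. That number was 771 without replicate 2 of the both-tumor IgG group, 453 without replicate 2 of the intracranial-only IgG group and 1120 without both, where the smallest adjusted p was 0.0592 and still 0 genes were called. The median absolute log2 fold change was 0.11 under IgG and 0.51 under therapy, and the 2 contrasts share no library. The difference between them was tested as an interaction in the fit over 12 libraries. It passed for 3505 genes (22%), 1924 with a positive value (12.1%) and 1581 with a negative one (9.93%), and 3494 of these were called under therapy with the same sign. All 14 neuron genes, 11 of 12 oligodendrocyte, 8 of 12 microglia, 5 of 14 complement, all 20 mitosis and 15 of 20 DNA replication genes were among them. Of the T cell list 3 of 19 were, of regulatory T cells 2 of 9 (Foxp3 and Tnfrsf9), and of hypoxia, interferon gamma target and pigment genes none.

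Among the smallest p-values of the interaction were those of Ccl11, Adora2a, the kinase gene Prkd1 and the neuropeptide gene Nts, with positive values, and those of the helicase gene Recql and the repair genes Mre11a and Pms1, with negative ones. Mre11a was at 61.4, 63.7 and 56.6 CPM with the intracranial tumor only and at 32.8, 23.6 and 29.3 CPM with both tumors under therapy (-1.08 ± 0.13). The interaction was not firm: no gene passed when 1 of 8 libraries was left out, namely replicate 2 or 3 of the intracranial-only IgG group, any of the 3 intracranial-only therapy libraries, replicate 1 of the both-tumor IgG group, or replicate 2 or 3 of the both-tumor therapy group. The smallest adjusted p in those fits was 0.0526 to 0.0669, and 5043 to 6138 genes had an unadjusted p under 0.05.

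**Figure D5:**
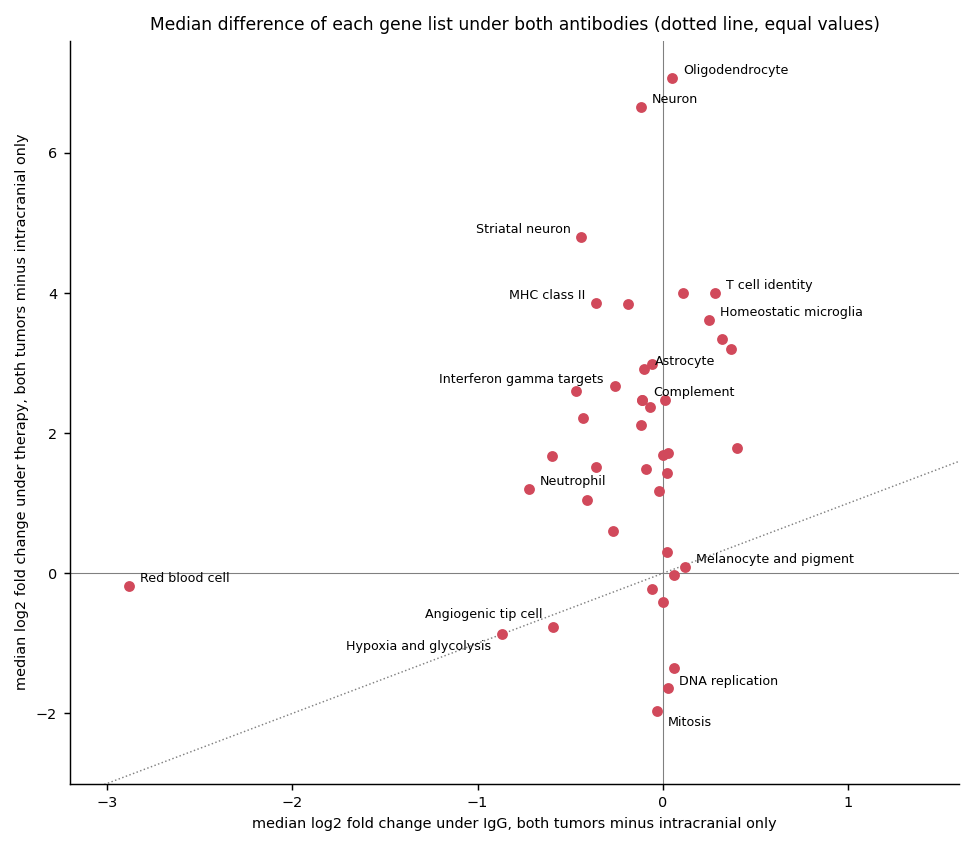
Median log2 fold change of each gene list with at least 5 tested genes, both tumors minus intracranial only, under therapy (vertical) against IgG (horizontal); the dotted line marks equal values. Most lists lie near 0 under IgG and spread from -1.97 (mitosis) to 7.07 (oligodendrocyte) under therapy, hypoxia and glycolysis lies on the line at -0.87 and -0.86, and red blood cell genes lie farthest from 0 under IgG at -2.88.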

How the data were processed

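RNA came from the RNAqueous-Micro kit and was made into libraries with a NEBNext Ultra RNA kit, per the labels' protocols. The submitters' processing notes name TopHat2 2.0.12, Bowtie2 2.2.3, HTSeq 0.6.1, GRCm38 and mm10, without saying which step used each. Strand setting and annotation release are not given in the sources used here, so overlapping antisense genes cannot be told apart. The tests used the read counts per Ensembl gene that the authors deposited. The deposited FPKM values, used only as a check, equalled count over 1 gene length and library total (relative tolerance 1e-06) in 16062 genes, those with reads throughout. Of 47069 identifiers 46488 matched a symbol.

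Counts were fitted in R 4.3.3 with edgeR 4.0.16 (filterByExpr, minimum count 10 and minimum total 15; TMM; quasi-likelihood test on 4 group means over 12 libraries), Benjamini-Hochberg adjusted over 15925 genes. The filter kept at least 99.87% of reads. The common dispersion was 0.112. Each SE is the absolute log2 fold change over the square root of the F statistic of that test. CPM use TMM library sizes, and list means are of log2 CPM with a prior count of 2. Simulated counts were used to test the fit. Bounds use a floor of 3 reads over a group and intervals are 95%, for counting error alone. Groups come from the labels. Replicate numbers follow accession order and pair nothing.

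The comparison, the 45 gene lists (591 genes) and the naming rule were chosen with earlier results of these data known. The rule named the 12 largest called changes in each direction whose mean reached 1 CPM in a compared group and whose libraries did not overlap, per list the 4 smallest p and the highest and lowest fold change, the 4 smallest interaction p of each sign, and 26 fixed genes; unnamed gene models and immune receptor segments were left out. Other list members named were added after their values were seen. A few genes named by it are not reported here. Alternatives were RLE size factors, scaling to pigment genes, no filter, a stricter filter, the compared groups alone, DESeq2 1.42.0, limma-voom (limma 3.58.1), the neuron list as covariate, and each library left out. Leaving out both IgG replicates 2 together was chosen after seeing the data.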

Additional observations from a re-analysis of the deposited data

Results flagged for a closer look

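The results given here were set apart because the difference between mice with both tumors and with the intracranial tumor only was itself different under therapy and under IgG, by the interaction test of edgeR. It passed for 3505 genes, with a smallest adjusted p of 0.0321. The result was not firm, because no gene passed in several fits that left out a single library. Among the genes with the smallest p, the log2 interaction was 6.69 for Ccl11, 4.22 for Adora2a, 5.88 for Prkd1 and 9.49 for Nts, and -0.89 for Recql, -1.10 for Mre11a and -1.21 for Pms1. Of the genes reported whatever their result, it passed for Foxp3 (3.02), Mki67 (-2.03), Snap25 (7.35), Gfap (5.54), Mog (8.73), P2ry12 (3.07) and Nos2 (5.56). Mog and Ccl11 had very few reads in the intracranial-only therapy group, so their values carry wide counting error. Snap25, Gfap, Mog, P2ry12 and Adora2a belong to lists of brain cells, whose means did not overlap between the therapy groups. With the neuron list as a covariate, no gene passed in edgeR's interaction test (676 at an unadjusted p under 0.05, smallest adjusted p = 0.881). That fit cannot tell the share of brain tissue apart from the extracranial tumor under therapy. The part of brain cells in each of the other values was not tested. Ccl11 was at 0.737, 0.310 and 0.269 CPM under IgG with the intracranial tumor only and at 0.239, 0.152 and 0.149 CPM under IgG with both tumors, an order opposite to that under therapy, though 0 genes were called under IgG. Groups of 3 are too small for the outlier test, so none was run.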

How the results depend on the processing

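Of 7231 genes called under therapy, 6966 were also called with the same sign with RLE size factors, 7139 with DESeq2 and 6631 with limma-voom. With the neuron list as covariate 0 were called (988 at an unadjusted p under 0.05), and 0 in the interaction (676 at an unadjusted p under 0.05). Leaving out 1 library gave 4710 (without replicate 2 of the both-tumor therapy group) to 8128 genes under therapy and 0 to 4364 in the interaction. The interaction numbered 1977 after scaling to pigment genes (69.7% positive, against 54.9%), 1584 with limma-voom (37.8% positive) and 1673 without both IgG replicates 2 (84.3% positive), a setting chosen after seeing the data that called 8443 genes under therapy. The cause of these differences was not tested.

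Signs turned for single genes with the neuron covariate: Car9 0.25, Cx3cl1 -0.27, Dct -0.17, Hoxb9 1.16, Lif -0.32, Mrc1 2.05, Ocln -0.59, Pmel -0.02, Pvr 0.19, Slc17a7 -0.36, Tox -1.48 and Trpm1 -0.13 (log2 fold change). After scaling to pigment genes Dct was at -0.04, Gja1 at -0.03 and Lif at -0.19, Lif was at -0.01 without a filter, and Mrc1 was at 0.02 with RLE size factors and with DESeq2. Among genes not called, leaving out 1 library gave ranges of -0.04 to 0.23 for Dct, -0.07 to 0.26 for Gja1, -0.43 to 1.18 for Lif, -0.68 to 0.22 for Mrc1 and -0.19 to 0.02 for Slc2a5. Of 182 named genes, 157 were called, and 46 lost the call without replicate 2 of the both-tumor therapy group, 44 without replicate 1 and 39 without replicate 2 of the intracranial-only therapy group. No paired analysis was possible because the labels carry no replicate numbers. With 3 libraries per group, genes of few reads have wide intervals.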

Other observations

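The level of granzyme B RNA relative to that of Cd8a varied between libraries in which Cd8a had enough reads to form a ratio. Gzmb per Cd8a, as a ratio of CPM, was 8.19 in replicate 2 of the intracranial-only IgG group (64 Cd8a reads) and 4.87 in replicate 3 of the intracranial-only therapy group (46 reads). It was 1.30, 2.98 and 2.29 in the 3 both-tumor therapy libraries (171, 470 and 451 reads), and 4.08 and 1.37 in replicates 1 and 3 of the both-tumor IgG group. Foxp3 per Cd8a was 0.187 and 0.109 in the first pair, 0.327, 0.0936 and 0.133 in the both-tumor therapy libraries, and 0.278 and 0.326 in the last pair. Foxp3 itself had few reads, 14 over the 3 intracranial-only therapy libraries, so its ratios are rough. The other 5 libraries had too few Cd8a reads. These ratios are of CPM, not corrected for gene length, rest on 1 or 2 libraries in 3 of the groups, and were not tested.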
